A study of Glycine max with 8 samples.

Results

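Sites in the outermost megabase of the soybean chromosomes were examined in 4 tissues. A site belonged to this set when its midpoint lay in the first 1 Mb or the last 1 Mb of the span of chromosomes 1 to 20, leaving out chromosome 13. The span of a chromosome ran to the largest site end on it in any of the 8 site lists, with repeated lines removed. This gave 38 chromosome ends on 19 chromosomes, and 31738 of the 442104 sites in the 8 lists fell in them. The choice of sites used position alone, so density, width, spacing, score rank and sharing between tissues were all free to differ from the rest. Because the last end is placed by a site, the true end of a chromosome may lie further out.

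The sites are MNase hypersensitive sites, stretches where micrococcal nuclease, an enzyme that cuts exposed DNA, releases short fragments under light digestion. All libraries came from soybean (Glycine max) of the cultivar Williams 82, with 2 libraries per tissue. Leaf libraries were from trifoliate leaves and root libraries from roots of seedlings at stage V2, seed libraries from plants at stage R4, and flower libraries from plants at stage R1. A greenhouse held the seedlings and the seed plants (12 h light, 28 °C in the light and 25 °C in the dark). Flowers were taken in a field, so growth place and flower tissue cannot be told apart. Ground tissue, 0.5 g for leaf and 1 g for the others, was fixed with 1% formaldehyde, and the nuclease (0.01, 0.03 or 0.1 unit) acted on nuclei for 10 min. DNA fragments below 100 bp were sequenced. For the seed stage, R4 was taken from the seed records, although the growth text of other records has R1. Tissue identity could not be checked against marker genes, since the lists hold positions only.

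Open chromatin in plants is found mostly at gene promoters and other regulatory DNA, where nucleosomes are displaced and transcription factors bind. Soybean chromosomes have gene-rich arms around wide, repeat-rich and gene-poor pericentromeric heterochromatin, so their ends lie in the gene-rich part. Each chromosome is capped by a telomere of short tandem repeats, and subtelomeric DNA next to it often carries repeats of its own.

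The chromosome ends make up 4.00% of the length of all 20 chromosomes. They held 7.70% and 7.66% of all sites in the leaf lists, 7.71% and 7.57% in the flower lists, and 7.12% and 6.84% in the seed lists. In root they held 3.87% and 4.61%. The number of sites in the ends was 5808 and 5692 for leaf, 3861 and 4699 for flower, 5895 and 4323 for seed, and 587 and 873 for root. The root lists differ from the others in form: they carry no score and hold sites down to 49 bp, against 100 bp in the other lists. This difference goes together with tissue and cannot be told apart from it. Read depth is unknown, because no read numbers come with the lists.

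Leaf, flower and seed chromatin had about double the density of hypersensitive sites in the chromosome ends as elsewhere, and root chromatin did not. Leaf had 152.8 and 149.8 sites per Mb in the ends against 74.2 and 73.1 in the rest of the same chromosomes. Flower had 101.6 and 123.7 sites per Mb against 49.2 and 61.0, and seed had 155.1 and 113.8 against 82.3 and 63.3. Root had 15.4 and 23.0 sites per Mb in the ends, and 15.96 and 19.6 in the rest. In the 6 leaf, flower and seed lists the ends lay above the rest, while the root libraries fell on either side of it. The ratio of end density to rest density was 2.05 ± 0.0072 for leaf, 2.05 ± 0.028 for flower, 1.84 ± 0.062 for seed and 1.07 ± 0.143 for root (SD, n = 2 libraries each). On the log2 scale the ratio averaged 0.76 ± 0.43 over 8 libraries and was above 0 in 7 of 8. The exact two-sided sign-flip permutation test over libraries gave p = 0.0156, and 0.0571 after Benjamini-Hochberg adjustment over 8 tests. Over the 6 libraries without root, a split made after seeing the data, the log2 ratio was 0.98 ± 0.08, with an exact permutation p of 0.03125, the smallest that 6 libraries allow.

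Tissue means of this ratio spanned 0.95 on the log2 scale. In an exact one-sided permutation test over all 105 ways of pairing the 8 libraries, p was 0.0286, and 0.0571 after adjustment. Over the 6 libraries without root, a split made after seeing the data, the same permutation test gave p = 0.2 over 15 pairings. The smallest p that 15 pairings allow is 0.0667, so this test could not go below 0.05. None of the 8 tests passed 0.05 after adjustment. The leaf and flower ratios overlapped, both seed ratios lay below all leaf and flower ratios, and both root ratios lay below all seed ratios. No test between a pair of tissues is given, because 2 libraries against 2 cannot go below p = 0.333 in an exact two-sided permutation test. Nothing in the labels ties the libraries of a tissue to separate plants or to the same ones. These p-values therefore measure the spread between libraries, which may be technical. The sign-flip tests treat the 2 libraries of a tissue as independent, so tissues are not the units they count.

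**Figure D1:**
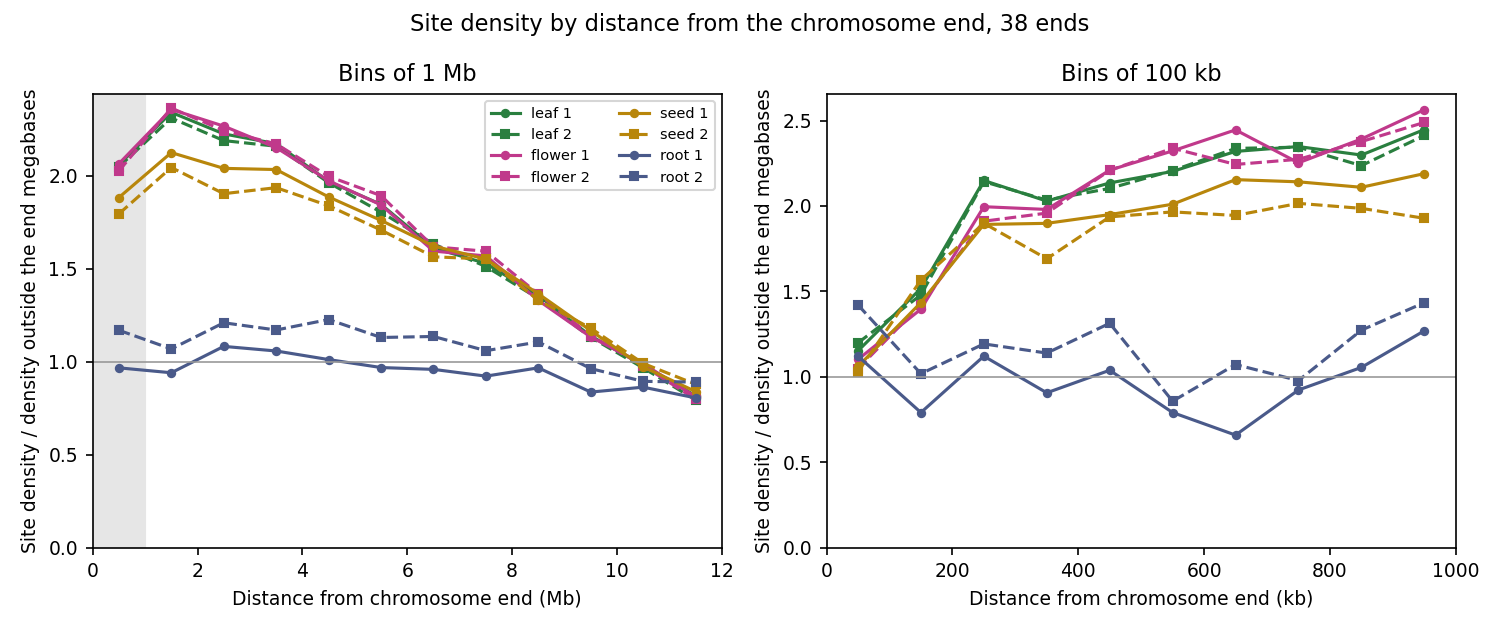
Site density by distance from the chromosome end, as the density in each bin over the density outside the end megabases, for 8 libraries over 38 ends; the left panel has bins of 1 Mb with the end megabase shaded, and the right panel has bins of 100 kb within it. Leaf, flower and seed lines stay close together, peak in the second megabase and drop towards the tip, while both root lines run near the grey line at 1.

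The outermost megabase was not the densest part of the arms. In all 6 leaf, flower and seed lists the second megabase from the end held the most sites, with 173.8 and 168.9 per Mb for leaf, 116.0 and 144.3 for flower, and 175.0 and 129.6 for seed. Root held 15.0 and 21 per Mb there. The density of the outermost megabase was 0.857 to 0.887 of that of the second in the 6 leaf, flower and seed lists, and 1.03 and 1.09 of it in root. With the second megabase in place of the rest as the reference, the mean log2 ratio over 8 libraries was -0.12 (exact sign-flip permutation p = 0.03125). From the second megabase inwards, density in leaf, flower and seed fell gradually and reached the level outside the ends at about 10 Mb. The profile of distance from the end shows this decline for each library.

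Within the outermost megabase, site density fell towards the tip in leaf, flower and seed. The outermost 100 kb held 85.5 and 87.6 sites per Mb for leaf, 54.2 and 63.9 for flower, and 87.4 and 65.3 for seed. The innermost 100 kb of the ends, 900 to 1000 kb from the tip, held 181.6 and 176.3 for leaf, 126.1 and 151.8 for flower, and 180.3 and 122.1 for seed. The tip density was 0.421 to 0.534 of the inner density in these lists. In root the outermost 100 kb held 17.9 and 27.9 sites per Mb and the innermost 20.3 and 28.2, ratios of 0.883 and 0.991. The innermost bins held 77 root 1 and 107 root 2 sites, 16 and 19 of them in the last megabase of chromosome 12. That end carries a dense stretch described further on. Most of the drop lay in the outer 200 kb, whose density was 0.550 to 0.676 of that of the inner 800 kb in leaf, flower and seed and 0.985 and 1.05 of it in root.

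Just outside the 1 Mb border, the 100 kb from 1000 to 1100 kb held 175.5 and 176.6 sites per Mb for leaf, 119.7 and 148.7 for flower, 171.8 and 130.8 for seed, and 13.7 and 23.2 for root. Leaf, flower and seed differed little across the border, with seed 2 higher outside it and leaf 2 nearly level. Both root libraries were higher just inside the border, in a bin that also holds part of the dense stretch on chromosome 12 described further on.

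Sites close to the very tip were few. The first coordinate of a chromosome is fixed, so the distance to the midpoint of the nearest site can be read at the 19 first ends. A site lay within 1 kb of the start at 1 and 4 of 19 first ends for leaf, 2 and 1 for flower, 1 and 1 for seed, and 3 and 6 for root. Within 10 kb the numbers were 3 and 5 for leaf, 4 and 3 for flower, 3 and 4 for seed, and 7 and 8 for root. Root, with the shortest lists, had the most first ends with a site within 10 kb. The median distance from the start to the nearest site was 16.5 kb in both leaf lists, 21.9 and 22.0 kb in flower, 16.6 and 21.3 kb in seed, and 21.7 and 20.96 kb in root.

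At 2 of the 38 ends, every list held a site within 1 kb of the tip. The first megabase of chromosome 1 opened with a site that started between 5 and 55 bp from the first base and was 288 to 606 bp wide. Its score percentile within its list was 97.8 and 99.8 for leaf, 92.1 and 97.7 for flower, and 99.7 and 99.6 for seed. In root the tip site was 577 and 606 bp wide, against a median width of 66 bp for root sites in the ends. This tip site ranked above the 90th percentile of its list in each of the 6 scored lists. The last 1 kb of chromosome 6 held 1 to 3 sites per list, and in root 2 a single site of 978 bp (51396926 to 51397903), the site that set the end of the span. There the score percentiles ran from 31.7 to 91.4.

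**Figure D2:**
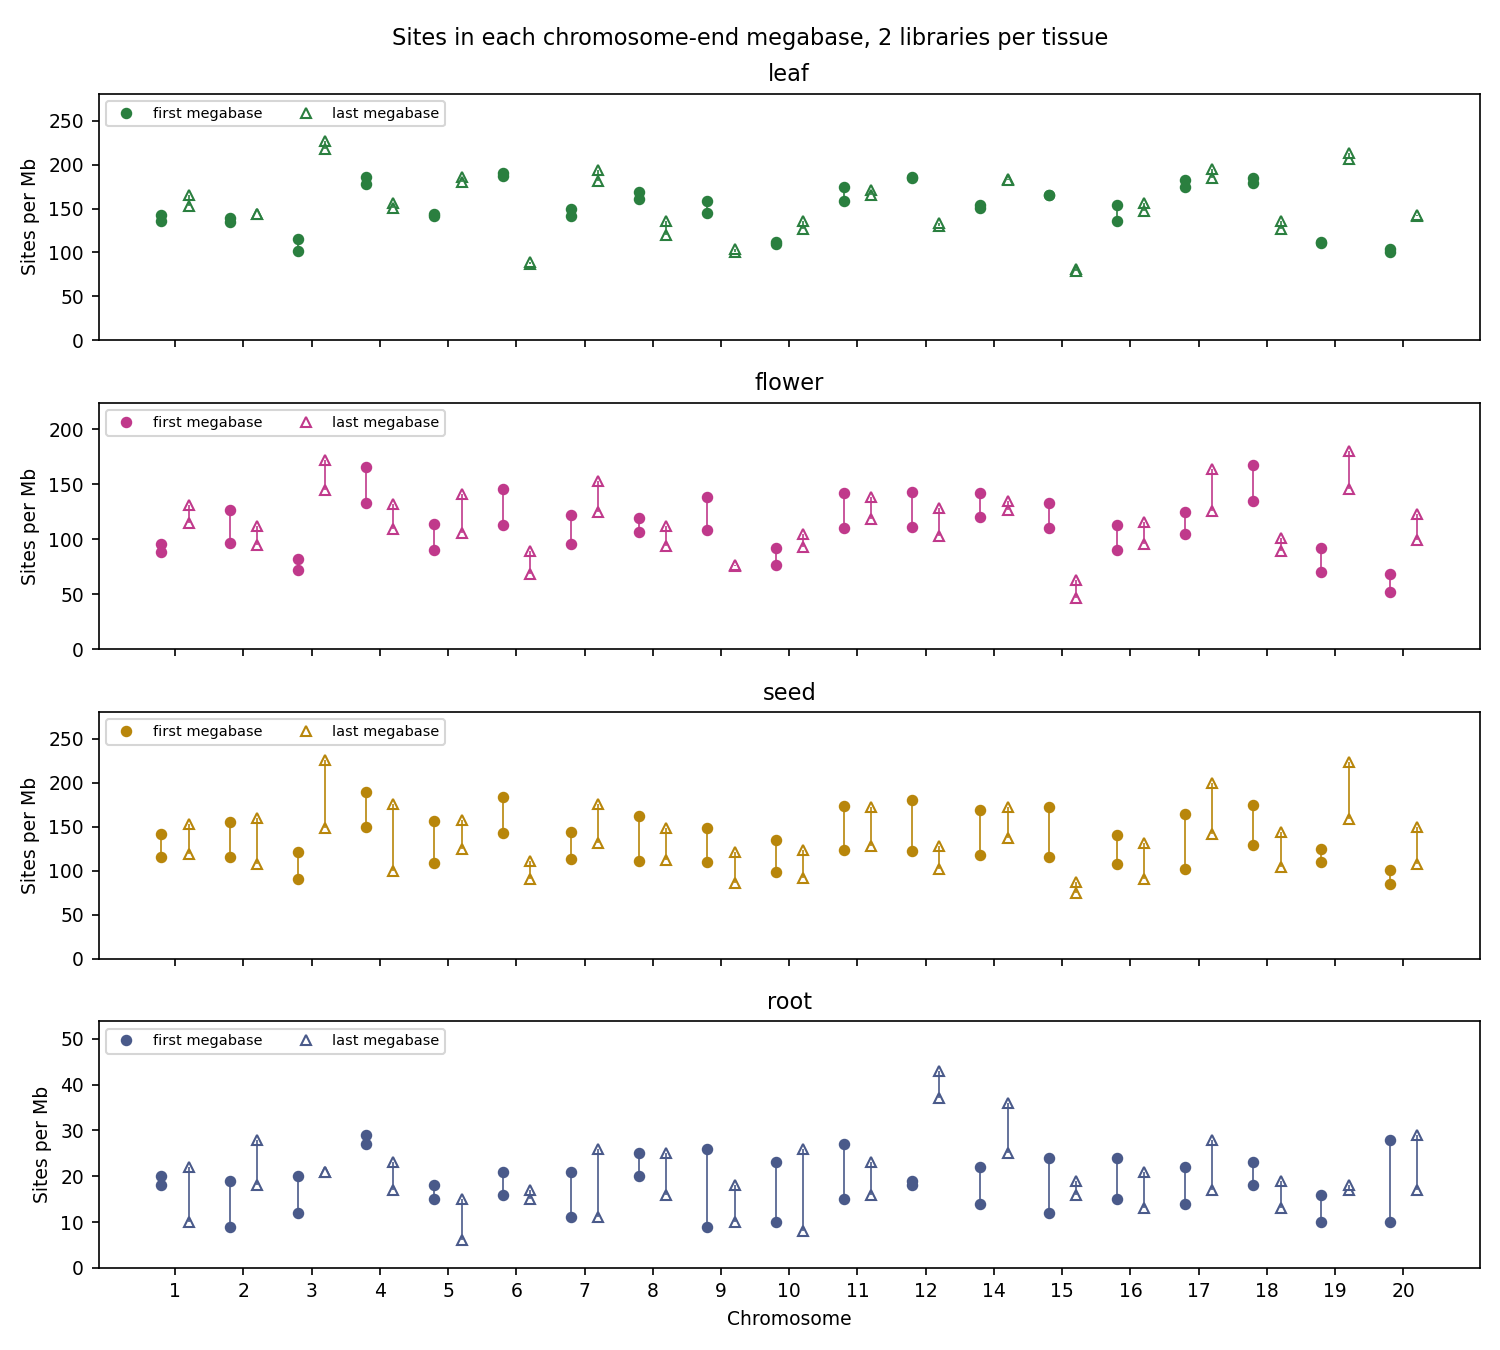
Sites per Mb in each of the 38 chromosome ends by tissue, with chromosome on the horizontal axis, filled circles for the first megabase, open triangles for the last, and a line joining the 2 libraries; the vertical scale differs between panels. The last megabases of chromosomes 3 and 19 stand high and that of chromosome 15 low in leaf, flower and seed, and the last megabase of chromosome 12 is highest in root.

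Chromosome ends differed widely among themselves, in leaf by far more than its libraries did. Over the 38 ends the site count ran from 81 to 227 (median 155) in leaf 1 and from 79 to 218 (median 146) in leaf 2. It ran from 47 to 146 (median 104) in flower 1 and from 63 to 180 (median 126) in flower 2. It ran from 87 to 226 (median 155.5) in seed 1, from 75 to 159 (median 111.5) in seed 2, from 6 to 37 (median 15) in root 1 and from 13 to 43 (median 22.5) in root 2. Each of the 38 ends was denser than the rest of its own chromosome in the 6 leaf, flower and seed lists, but only 16 and 28 ends were in the root lists. First megabases held 2910 and 2815 leaf sites in all against 2898 and 2877 in last megabases. The totals were 1884 and 2327 against 1977 and 2372 for flower, and 2936 and 2167 against 2959 and 2156 for seed. For root they were 275 and 425 against 312 and 448, the largest gap relative to the total being that of root 1.

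The order of the ends was much alike in leaf, flower and seed. Across the 38 ends, as a description, counts of the 2 libraries of a tissue correlated with Pearson's r of 0.898 to 0.976 in leaf, flower and seed, and counts of different tissues among these with r of 0.851 to 0.937. Spearman's rho was 0.848 to 0.970 within and 0.835 to 0.934 between these tissues. The 2 root libraries correlated with r = 0.535 but rho = 0.196, and root with other tissues with r of 0.097 to 0.295 and rho of 0.137 to 0.371. By rank, root libraries were thus no closer to each other than to several lists of other tissues. The points share the same ends, and with them base composition and gene content, and root ends rest on few sites each.

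The densest end in leaf was the last megabase of chromosome 3, with 227 and 218 sites, followed by the last megabases of chromosome 19 (207 and 213) and chromosome 17 (195 and 185). The same 3 ends led in seed, where the last megabase of chromosome 19 held 224 and 159 sites, that of chromosome 3 held 226 and 148, and that of chromosome 17 held 200 and 142. In flower the last megabase of chromosome 19 held 146 and 180 sites, that of chromosome 3 held 145 and 172, and the first megabase of chromosome 18 held 135 and 167. The leading ends lay close together. Among the 3 named ends, and within each library, this order held in both leaf and both flower libraries. In seed the last megabases of chromosomes 3 and 19 changed places between libraries, and that of chromosome 17 lay below them in both. The first megabase of chromosome 6 held 187 sites in leaf 2 and 143 in seed 2, above the last megabase of chromosome 17. In seed 2 the first megabase of chromosome 4 held 150 sites, above the last megabases of chromosomes 3 and 17. Its seed mean was 169.5, against 171 for the last megabase of chromosome 17. Root had a different order, led by the last megabase of chromosome 12 with 37 and 43 sites, then the last megabase of chromosome 14 (25 and 36) and the first megabase of chromosome 4 (27 and 29).

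At the sparse extreme, the last megabase of chromosome 15 held 81 and 79 leaf sites, 47 and 63 flower sites, and 87 and 75 seed sites, the lowest mean of the 38 ends in each of these tissues. The last megabase of chromosome 6 held 87 and 89 leaf sites and 111 and 90 seed sites. The first megabase of chromosome 20 held 52 and 68 flower sites and 101 and 85 seed sites. The last megabase of chromosome 9 held 100 and 104 leaf sites and 76 and 77 flower sites, next above these. In root the lowest means were those of the last megabase of chromosome 5 (6 and 15 sites) and the first megabase of chromosome 19 (10 and 16). The first megabase of chromosome 2 (9 and 19) and the last megabase of chromosome 9 (10 and 18) tied next. Low root counts differed between the libraries by as much as between these ends.

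The 2 ends of a chromosome often differed. On 4 chromosomes the last megabase held more sites than the first in all 8 lists, on 2 the first held more than the last in all 8, and on 13 neither did. On chromosome 3 the first megabase had 115 and 102 leaf sites and the last 227 and 218. The last-to-first ratio of mean counts on chromosome 3 was 2.05 for leaf, 2.06 for flower, 1.76 for seed and 1.31 for root. Chromosome 19 had ratios of 1.88, 2.01, 1.63 and 1.35, chromosome 20 of 1.39, 1.85, 1.38 and 1.21, and chromosome 17 of 1.06, 1.26, 1.29 and 1.25 in the same order of tissues. The opposite held on chromosome 6, with ratios of 0.466, 0.606, 0.615 and 0.865, and on chromosome 4, with 0.843, 0.806, 0.811 and 0.714. Chromosome 15 had ratios of 0.483 in leaf, 0.453 in flower and 0.564 in seed, but 0.972 in root. On chromosome 12 the last megabase had fewer sites than the first in leaf (0.709), flower (0.909) and seed (0.762), and more in root (2.16).

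Relative to its own chromosome, and by the mean of the 2 libraries, the last megabase of chromosome 14 had the highest leaf density, at 3.22 and 3.19 times the rest of that chromosome. The last megabases of chromosome 3 (3.22 and 3.15) and chromosome 19 (3.09 and 3.22) overlapped with it between libraries. In flower the first megabase of chromosome 18 led with 3.47 and 3.41 times, and in seed the last megabase of chromosome 19 with 2.92 and 2.71 times. The smallest leaf ratio was that of the last megabase of chromosome 6, with 1.00 and 1.02, a level equal to the rest of the chromosome. In flower and seed the last megabase of chromosome 15 had the lowest mean, with 1.08 and 1.17, and 1.17 and 1.299. In seed the last megabase of chromosome 6, with 1.197 and 1.28, could not be separated from it. Root ratios ran from 0.285 and 0.660 in the last megabase of chromosome 5 to 2.30 and 2.28 in the last megabase of chromosome 12.

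Against all windows of 1 Mb, the ends lay above the median window, and their share among the densest was near the background. Of 936 windows tiling the 20 chromosomes, 10.3% were called densest for leaf, 10.0% for flower, 10.1% for seed and 10.5% for root, where the call was a count at or above the 90th percentile of windows. Of the 38 ends, 5 were as dense as these windows for leaf, 5 for flower, 4 for seed and 3 for root. These counts are close to the share of all windows. They rose to 8 for leaf and 9 for seed with lists reduced to equal length, and to 10 for leaf, 8 for flower and 9 for seed with ends and windows of 2 Mb. In contrast, 38 of 38 ends lay above the median window in leaf, flower and seed, where the median window held 46.75, 34 and 54 sites as the mean of the 2 libraries. In root 34 of 38 ends lay above the median window of 15 sites. The densest window held 217 root sites, against 282.5 in leaf, 224 in flower and 235 in seed, as means of 2 libraries. These windows include chromosome 13. The part of such dense windows in the root density of the rest was not tested.

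Median site width in the ends lay close to that of the rest in each library. The median width in the ends was 203 and 194 bp for leaf, 167 and 172 bp for flower, 183 and 162 bp for seed, and 66 and 66 bp for root. In the rest it was 201 and 190 bp for leaf, 167 and 172 bp for flower, 183 and 165 bp for seed, and 69 and 67 bp for root. The medians differed by at most 4 bp in any library, and the mean difference was -0.125 ± 2.36 bp (SD, n = 8 libraries; exact sign-flip permutation p = 1). With every list reduced to the number of sites of the shortest, by score or in root by width, it was -5.31 bp (exact sign-flip permutation p = 0.0078). Per end, mean median widths ran from 178 bp (first megabase of chromosome 19) to 213.5 bp (first megabase of chromosome 2) in leaf. They ran from 152 bp (last megabase of chromosome 6) to 183 bp (last megabase of chromosome 20) in flower, and from 158.25 bp (last megabase of chromosome 9) to 189.5 bp (last megabase of chromosome 15) in seed. The sparse last megabase of chromosome 15 thus held the widest seed sites by the mean of the 2 library medians, 187 and 192 bp. In seed 1 alone the first megabase of chromosome 2 had a wider median, 197 bp.

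Score ranks in the ends lay within 1 percentile point of the rest in each scored list. The score is the authors' own value for each site, and it was ranked only within its list, from 0 to 100 as a percentile. The median percentile of sites in the ends was 50.6 and 50.0 for leaf, 49.4 and 49.9 for flower, and 49.7 and 49.7 for seed. The rest had medians of 49.9 and 50.0, 49.9 and 49.9, and 50.1 and 50.1. The difference averaged -0.11 ± 0.47 percentile points (SD, n = 6 libraries; exact sign-flip permutation p = 0.5625). Sites above the 90th percentile made up 10.2% and 9.52% of end sites for leaf, 10.0% and 9.56% for flower, and 10.3% and 9.69% for seed. Single ends departed further: median percentiles ran from 40.8 (last megabase of chromosome 6) to 60.4 (last megabase of chromosome 12) in leaf. They ran from 40.9 (last megabase of chromosome 9) to 60.4 (first megabase of chromosome 1) in flower, and from 40.1 (first megabase of chromosome 20) to 60.4 (last megabase of chromosome 12) in seed, as means of 2 libraries.

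Spacing, the distance between midpoints of neighbouring sites, was more even in the ends than in the rest. Its median in the ends was 3586 and 3628 bp for leaf, 5112 and 4168 bp for flower, 3661 and 4954 bp for seed, and 38502 and 26607 bp for root. In the rest it was 3977 and 4012 bp, 6171 and 4543 bp, 3749 and 5165 bp, and 26499 and 24388 bp in the same order. Median spacing was shorter in the ends in the 6 leaf, flower and seed lists and longer in both root lists. The log2 ratio averaged -0.015 ± 0.25 over 8 libraries (exact sign-flip permutation p = 0.891), and -0.13 over the 6 libraries without root (exact permutation p = 0.03125), a split made after seeing the data. The tissue means of this ratio spanned 0.53 (exact permutation p = 0.0286 over 105 pairings, 0.0571 after adjustment). This test was added after seeing the data, and its p rose above 0.05 when any of the leaf, flower or seed libraries was left out, reaching 0.219.

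The median spacing fell far less than density rose in leaf, flower and seed. The median was 0.527 to 0.576 of the mean spacing in the ends and 0.277 to 0.327 in the rest of the leaf, flower and seed lists. In root it was 0.639 and 0.633 in the ends and 0.423 and 0.479 in the rest. Median and mean spacing were thus closer in the ends than in the rest in each of the 8 lists. In the second megabase the median was 0.554 and 0.552 of the mean for leaf, and 0.558 and 0.530 for flower. It was 0.579 and 0.575 there for seed and 0.642 and 0.630 for root, near the values in the ends. Neighbours within 1 kb made up 20.5% and 21.3% of spacings in the ends for leaf, 17.2% and 19.5% for flower, and 20.03% and 15.8% for seed. In the rest these shares were 19.5% and 19.96%, 15.9% and 18.98%, and 20.8% and 17.0%. Root had 10.2% and 9.34% in the ends and 17.6% and 14.8% in the rest. Close neighbours were thus a smaller share of root spacings in the ends than in the rest. In the second megabase the root shares were lower still, at 4.69% and 4.87%. The end values include the dense stretch on chromosome 12 described further on.

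**Figure D3:**
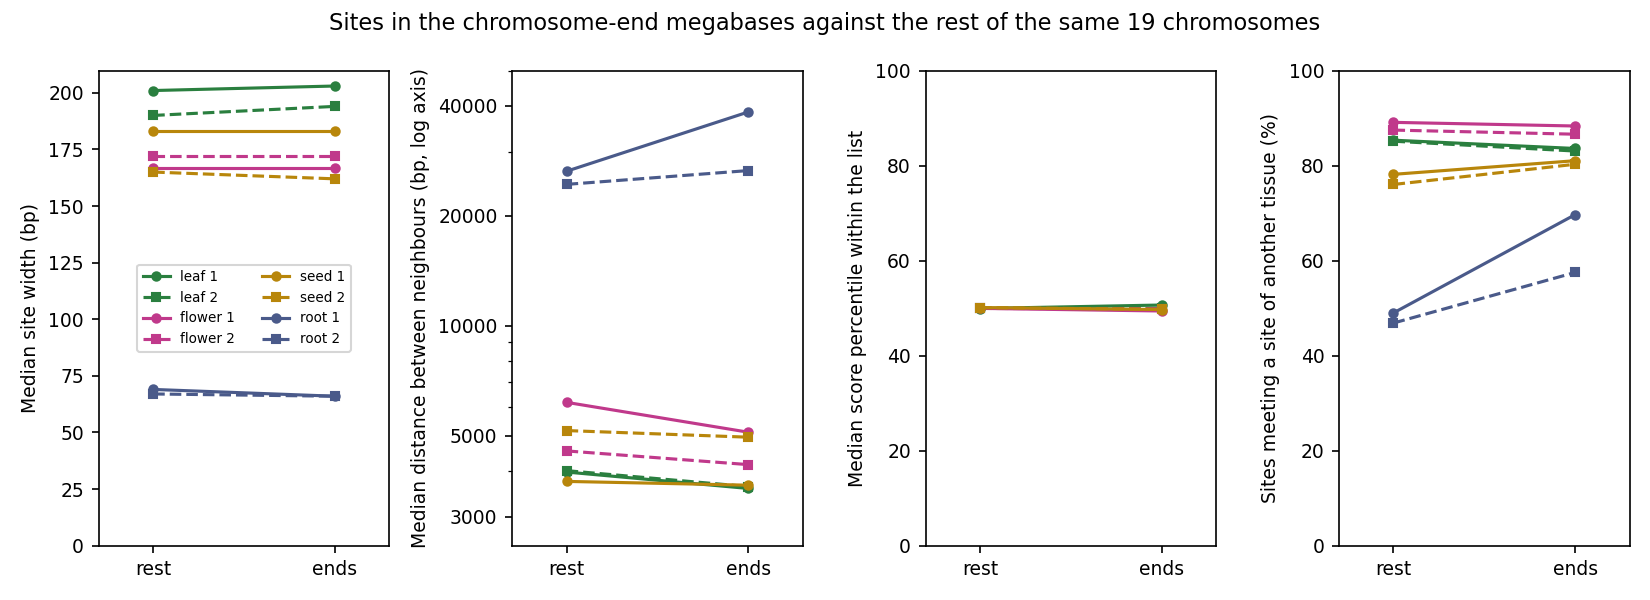
Median site width, median spacing (log axis), median score percentile and share of sites meeting a site of another tissue, in the rest of the 19 chromosomes and in the ends, with 1 line per library; root has no score. Width and score lines are flat, spacing lines fall slightly in leaf, flower and seed and rise in root, and the share met rises in root from 48.99% and 46.9% to 69.7% and 57.5%.

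Sharing between tissues was read as the share of sites that overlapped, by at least 1 bp, a site of any library of another tissue. In the ends it was 83.6% and 83.0% for leaf, 88.3% and 86.6% for flower, 81.0% and 80.3% for seed, and 69.7% and 57.5% for root. In the rest it was 85.3% and 85.1%, 89.1% and 87.5%, 78.1% and 76.0%, and 48.99% and 46.9%. Sharing was slightly lower in the ends in both leaf and both flower libraries, and higher in both seed and both root libraries. Over 8 libraries the difference averaged 4.13 ± 7.93 percentage points (SD; exact sign-flip permutation p = 0.203). It was -0.13 points with an overlap of 50% of both sites required, and 0.61 without root, which was dropped also as a tissue to meet. The tissue means of the difference were -1.91 points for leaf, -0.818 for flower, 3.56 for seed and 15.7 for root, and their range of 17.6 points gave an exact permutation p of 0.00952, the smallest that 105 pairings allow, and 0.0571 after adjustment. This test was also added after seeing the data, and without leaf 2 or flower 2 its p was 0.0667 or 0.0571.

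The length covered by sites also differed between the ends and the rest. Leaf sites covered 3.48% and 3.28% of the ends and 1.70% and 1.60% of the rest, and seed sites 3.19% and 2.07% against 1.70% and 1.17%. Flower sites covered 1.92% and 2.44% of the ends and 0.942% and 1.21% of the rest. Root sites covered 0.121% and 0.180% of the ends and 0.140% and 0.162% of the rest. The part of this coverage in the higher sharing of root and seed sites was not tested. Against the second megabase, where leaf, flower and seed coverage is higher still, the share met was lower in the ends by 1.27 points on average (exact sign-flip permutation p = 0.0156), with seed 2 the 1 library above 0. Root sites met another tissue in 71.8% and 62.2% of cases in the second megabase, against 69.7% and 57.5% in the ends.

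Root sites in the ends met each of the other tissues more often than root sites in the rest. They met leaf sites in 61.3% and 48.7% of cases against 41.7% and 39.6% in the rest, flower sites in 56.0% and 43.4% against 34.3% and 32.3%, and seed sites in 61.3% and 49.7% against 39.9% and 38.5%. The difference held in the narrow sites: of root sites under 100 bp, 66.7% (95% Wilson interval 62.5% to 70.7%, 502 sites) and 54.4% (50.8% to 58.0%, 746 sites) met another tissue in the ends, against 42.3% and 40.9% in the rest. Such intervals cover counting error only. Sites from 100 to under 150 bp met another tissue in 84.5% and 68.7% of cases in the ends and 65.1% and 66.2% in the rest. Restricted to root sites of at least 100 bp, the range of tissue means of the difference in sharing was 9.15 points (exact permutation p = 0.238).

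Between the libraries of a tissue the pattern was the reverse for root. Root sites in the ends met a site of the other root library in 17.4% and 11.8% of cases, against 25.7% and 21.3% in the rest. Leaf sites met the other leaf library in 79.3% and 81.4% of cases in the ends and 79.3% and 81.1% in the rest. Flower sites did so in 73.6% and 59.5% against 74.2% and 59.3%, and seed sites in 55.4% and 76.7% against 56.7% and 75.1%. Leaf, flower and seed differed by under 2 percentage points between ends and rest, and both root libraries were lower in the ends. No such value was computed for the second megabase, so whether the lower root overlap is particular to the ends was not tested.

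Reproducible regions, where sites of both libraries of a tissue overlap by at least 20 bp, were then sorted by tissue. The ends held 4684 for leaf, 2866 for flower, 3334 for seed and 104 for root. Their density relative to the rest was 2.05 for leaf, 2.04 for flower, 1.83 for seed and 0.663 for root. A region was called tissue-specific when it met no site in any library of the other tissues. In all reproducible regions this share was 9.62% for leaf, 4.71% for flower, 13.1% for seed and 27.0% for root.

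In the ends 521 leaf regions were specific, which is 11.1% (95% Wilson interval 10.3% to 12.1%) against 9.42% in the rest. For flower the count was 136, or 4.75% (4.03% to 5.59%) against 4.68%, a share level with its background. For seed it was 336, or 10.1% (9.10% to 11.1%) against 13.5%, and for root 17, or 16.3% (10.5% to 24.6%) against 27.6%. The share in the ends was thus above that of the rest for leaf and below it for seed and root. The intervals treat regions as independent and cover counting error only, and no test over libraries is given, since each tissue gives a single set. With the dense stretch on chromosome 12 left out, the root share was 17 of 86, or 19.8% (12.7% to 29.4%), nearer the 27.6% of the rest. With ends of 0.5 Mb the root shares were 26.9% and 27.3%. The leaf direction held in 16 of 16 alternative settings (0.98 to 2.07 points), the seed direction in 16 of 16 (-4.25 to -0.52 points) and the root direction in 15 of 16 (-28.4 to 15.5 points). With an overlap of at least 50% of both sites required in place of 20 bp and 1 bp, 68.7% of root regions in the ends were specific against 53.2% in the rest. Flower was higher in the ends in 7 settings and lower in 9. None of these settings set the ends against the second megabase, so whether these shares are particular to the ends was not tested. Ends of 2 Mb take in the second megabase, and there the shares were 10.9% (leaf), 4.59% (flower), 10.6% (seed) and 11.9% (root).

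**Figure D4:**
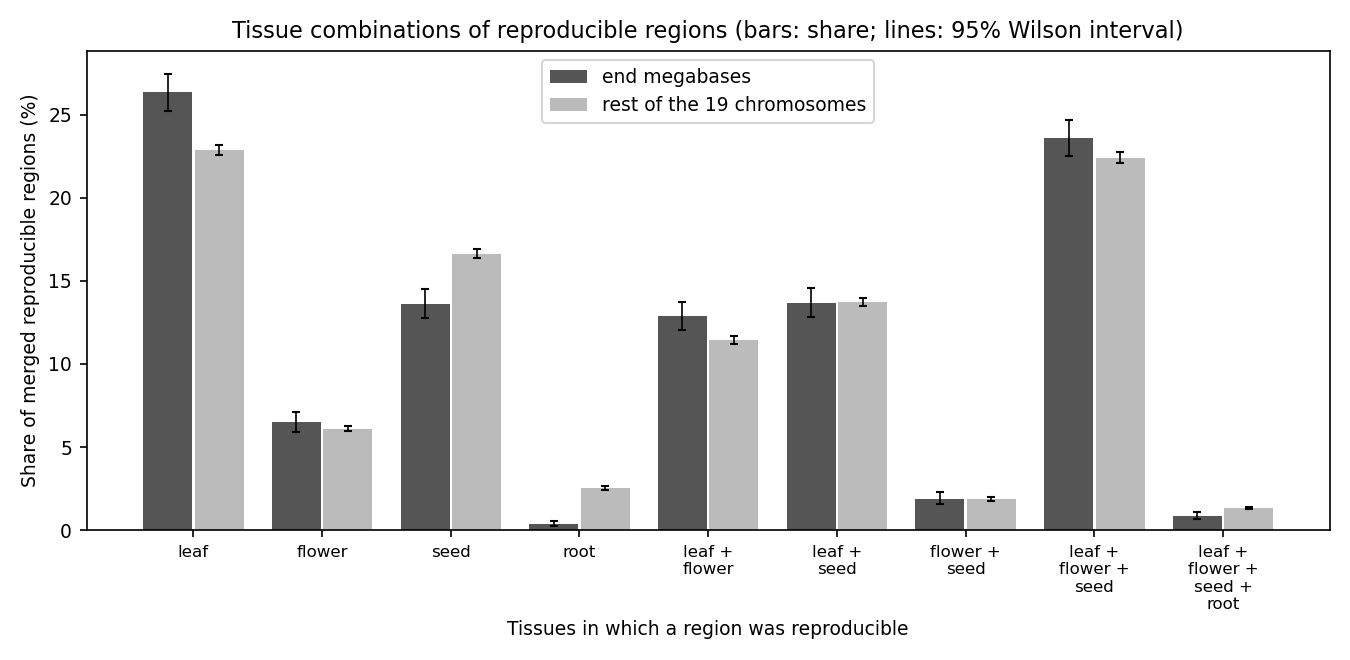
Share of merged reproducible regions by the tissues in which they were reproducible, for 5999 regions in the end megabases (dark bars) and 70623 in the rest of the 19 chromosomes (light bars), with 95% Wilson intervals as lines. Regions of leaf alone take a larger share in the ends and regions of seed alone or root alone a smaller one.

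Merged across tissues, the ends held 5999 reproducible regions and the rest 70623. Leaf alone made up 26.3% of regions in the ends and 22.9% in the rest, seed alone 13.6% and 16.6%, and flower alone 6.48% and 6.11%. Leaf with flower made up 12.9% and 11.4%, leaf with seed 13.7% and 13.7%, and flower with seed 1.90% and 1.87%. Leaf, flower and seed together, without root, made up 23.6% and 22.4%. The ends therefore held relatively more regions of leaf, with or without flower, and fewer of seed alone. Regions with root were 1.53% in the ends and 4.93% in the rest, and root alone 0.383% and 2.53%. Regions in all 4 tissues numbered 51 in the ends, 0.850% of regions there, against 1.33% in the rest.

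Sharing also differed between ends. The share of merged regions found in 3 or more tissues ran from 14.4% in the first megabase of chromosome 20 to 33.5% in the last megabase of chromosome 1, with a median of 25.3%. The share of leaf regions that were specific was highest in the first megabase of chromosome 17, with 28 regions or 18.7%, and lowest in the first megabase of chromosome 9, with 4%. Regions in all 4 tissues were missing from 11 ends and numbered 10 in the last megabase of chromosome 12. Reproducible root regions were missing from 7 ends, and 22 of the 104 lay in that same end.

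The first megabase of chromosome 19 stood out for sites of 1 tissue. Its leaf sites met another tissue in 76.6% and 76.8% of cases and its seed sites in 69.6% and 68.2%, the lowest mean of the 38 ends in both tissues. Of its 78 reproducible seed regions 15 were specific, or 19.2%, the highest count and share among the ends. The longest gap between neighbouring leaf sites of an end lay here, at 372206 to 460096 (87.9 kb with no site in either leaf list), and the longest between flower sites nearly coincided with it, at 364166 to 454147 (89.98 kb). Within the leaf gap the seed lists held 6 and 4 sites, the flower lists 0 and 2, and the root lists 1 and 2. The longest seed-specific region of all ends lay inside both gaps, at 435440 to 435850 (411 bp), with score percentiles of 94.1 and 84.2 in the seed lists. The stretch without leaf sites was therefore not without sites in seed.

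Other long gaps differed in kind. The longest gap in seed, on chromosome 11 at 34641866 to 34750223 (108 kb), was also without leaf and flower sites and held 2 sites of root 2. It is no gap between leaf sites, because that end had no leaf site further out: the leaf site nearest to the tip was 124201 bp from it in leaf 1 and 124182 bp in leaf 2, and in flower the distances were 148850 and 124184 bp. In root the longest gap was on chromosome 2 at 437430 to 664940 (228 kb), where the other lists held between 15 and 25 sites each. The densest 100 kb of any end in leaf was on chromosome 9 at 800001 to 900000, with 33 and 32 leaf sites, 22 and 30 flower sites, 23 and 19 seed sites, and 0 and 3 root sites.

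The longest tissue-specific regions were found in different ends. For leaf they were on chromosome 19 at 50454215 to 50454619 (405 bp; score percentiles 90.2 and 57.6) and at 50230681 to 50231061 (381 bp; 75.3 and 67.3), and on chromosome 15 at 226417 to 226777 (361 bp; 86.8 and 83.3). For flower they were shorter, on chromosome 3 at 45351664 to 45351907 (244 bp; 33.5 and 34.9), with a region on chromosome 10 at 50780484 to 50780706 (223 bp; 46.1 and 40.0) and another on chromosome 5 at 41320502 to 41320697 (196 bp; 52.5 and 21.01). These 3 flower-specific regions ranked near or below the middle of their lists, and the 3 leaf-specific ones above it. After the chromosome 19 region, the next seed-specific regions were on chromosome 8 at 426463 to 426839 (377 bp; 94.6 and 97.4) and chromosome 18 at 57418741 to 57419036 (296 bp; 85.7 and 90.8). The longest root-specific region was on chromosome 4 at 20890 to 21029 (140 bp), with the next on chromosome 6 at 51348140 to 51348232 (93 bp) and then on chromosome 12 at 982 to 1070 (89 bp). These 3 root-specific regions, the longest of 17 in the ends, lay within 50 kb of a chromosome tip, at 20.96, 49.7 and 1.03 kb. The share of other root regions lying so close to a tip was not computed.

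**Figure D5:**
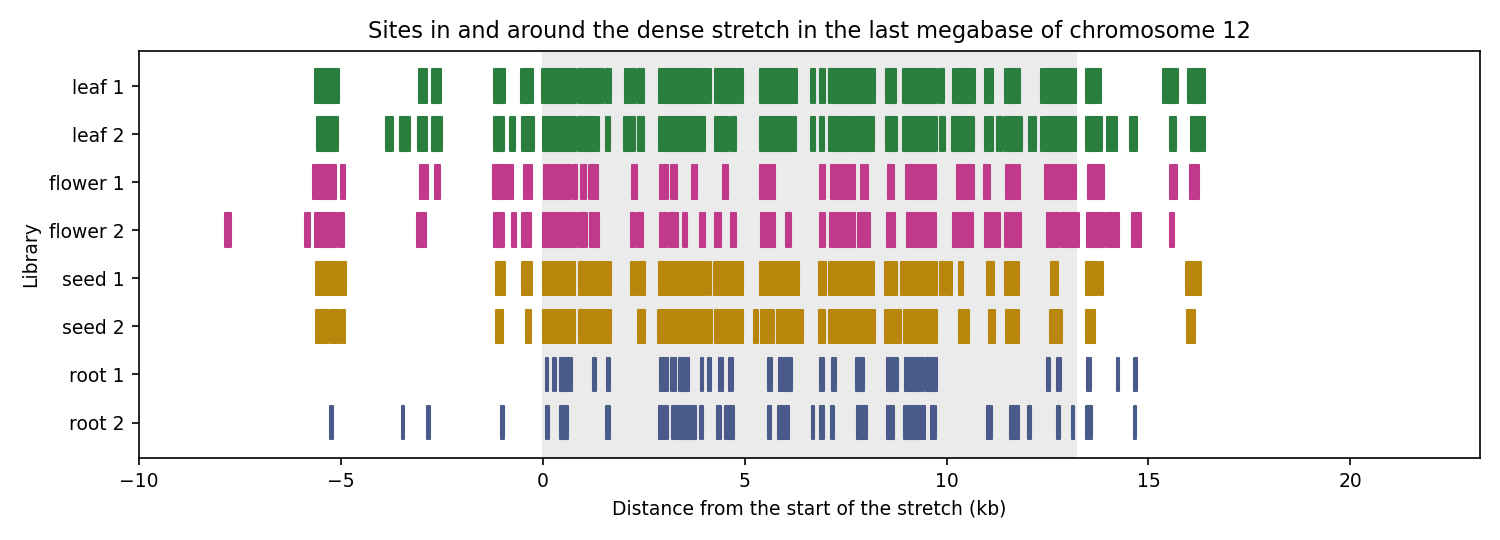
Sites of the 8 libraries in and around the dense stretch of 13.2 kb (shaded) in the last megabase of chromosome 12, against distance from the start of the stretch in kb; each block is a site drawn to scale with a thin outline. Leaf and seed sites fill most of the stretch, flower sites less of it, and root sites cluster inside it.

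A stretch of 13.2 kb in the last megabase of chromosome 12, at 39184546 to 39197749, held the 5 longest regions shared by all 4 tissues and was chosen after its values were seen. It held 21 and 23 leaf sites, 21 and 24 flower sites, 20 and 19 seed sites, and 22 and 23 root sites. Sites covered 71.2% and 69.9% of it for leaf, 42.4% and 51.4% for flower, 63.0% and 62.5% for seed, and 26.1% and 28.3% for root. Root thus had as many sites here as the tissues with much longer lists, though narrower ones. The median score percentile was 98.1 and 93.4 for leaf, 83.4 and 90.9 for flower, and 99.4 and 99.5 for seed.

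The 5 regions in 4 tissues were at 39187422 to 39188569 (1148 bp), 39191632 to 39192762 (1131 bp), 39189923 to 39190885 (963 bp), 39196885 to 39197749 (865 bp) and 39184546 to 39185402 (857 bp). The last of these had the highest mean score percentile of all end regions, 99.9. This mean was taken over the highest-scoring site of a region in each scored list, which favours regions with several sites per list. Of the 5 regions with the highest mean percentile, 3 lay in the stretch. The other 2 were on chromosome 9 at 705256 to 705533 (278 bp; mean percentile 98.7) and on chromosome 17 at 327448 to 327851 (404 bp; 98.6), each with 1 site in every leaf, flower and seed list and none in root.

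The stretch carried 22 of the 37 root 1 sites and 23 of the 43 root 2 sites of its end, 18 of the 104 reproducible root regions of all ends, and 8 of the 51 regions in 4 tissues. The densest 100 kb of any end in flower, seed and root overlapped it, at 39090612 to 39190611, with 26 and 32 flower sites, 27 and 26 seed sites, and 16 and 19 root sites. Without the stretch, the last megabase of chromosome 12 had 15 and 20 root sites, near the medians of 15 and 22.5 over all ends. The ratio of end density to rest density in root was then 0.932 and 1.14, and the share of root sites meeting another tissue 68.5% and 56.4%. The ratio was 2.05 and 2.04 for leaf, 2.05 and 2.02 for flower, and 1.88 and 1.79 for seed. Relative to the mean of leaf, flower and seed, each scaled to its own mean over the ends, root density was highest in this end (2.27), then in the last megabase of chromosome 15 (1.69) and the first megabase of chromosome 20 (1.56). It was lowest in the last megabase of chromosome 5 (0.488), the last megabase of chromosome 19 (0.642) and the first megabase of chromosome 2 (0.752). In the first megabase of chromosome 20 the root libraries held 10 and 28 sites, so that value rests mainly on root 2.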

How the data were processed

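The authors deposited a list of sites per library, with start and end positions and, for leaf, flower and seed, a score. Per the submitters' processing notes, Trimmomatic 0.36 and BWA 0.7.15-r1140 were used on the reads. The sources used here do not give the genome build, the caller of the sites or what the score measures. Repeated lines of chromosome 11 in the root lists (479 and 649) were removed, and starts were taken to count from 0 and are printed from 1. No genome sequence was used, and the available gene table was not shown to share the build, so no gene or sequence is given. Values per library were compared with exact permutation tests (scipy 1.17.1, pandas 2.3.3, Python 3.11.15). The density ratio was checked on simulated lists, and the permutation tests were not run on such lists. The members, the set definitions and the tests were chosen with earlier results of these data known. Named regions followed a rule: per tissue the 3 densest and 3 sparsest ends, the 3 longest specific regions, the densest 100 kb and the longest gap without a site in either list; over tissues the 5 longest and the 5 top-scoring regions, and the 3 highest and 3 lowest ends of root relative to the others. Precision from read depth cannot be stated. End length, reference region, list length, root width, overlap and left-out libraries were varied.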

Additional observations from a re-analysis of the deposited data

Results flagged for a closer look

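For 3 measures the difference between chromosome ends and the rest varied between tissues, at p below 0.05 before adjustment in exact permutation tests. The log2 density ratio of ends over rest had tissue means that spanned 0.95, from root at the low extreme to leaf and flower at the high (exact permutation p = 0.0286 over 105 pairings). The log2 ratio of median spacing had tissue means that spanned 0.53, with flower lowest at -0.20 and root highest at 0.33 (exact permutation p = 0.0286). The share of sites meeting another tissue had tissue means that spanned 17.6 percentage points, from leaf at -1.91 to root at 15.7 (exact permutation p = 0.00952). Each p was 0.0571 after adjustment over 8 exact permutation tests, so none passed 0.05. Without the root libraries, a split made after seeing the data, the exact permutation p over 15 pairings was 0.2 for density and 0.2 for spacing. For the share met, with root kept as a tissue to meet, it was 0.0667, the smallest that 15 pairings allow. The root lists hold narrower sites and no score, and their part in these differences cannot be told apart from tissue.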

How the results depend on the processing

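With the second megabase as reference, the log2 density ratio was -0.12 and the difference in share met -1.27 points, both of opposite sign to the values against the rest. Other settings kept the direction of the density ratio. With an overlap of 50% of both sites the difference in share met was -0.13 points, also of opposite sign, and without root it was 0.61. Differences near 0 changed sign with no exact permutation p below 0.05: spacing to 0.0377 at 0.5 Mb, 0.0031 with chromosome 13, 0.0327 with stricter lists, 0.0993 against the second megabase and 0.51 when root sites under 100 bp were dropped, score to 0.44 points at 2 Mb, and width to 0.938 bp at 2 Mb and 0.5 bp without root. Without root, added after seeing the data, the spacing ratio was -0.13 (exact permutation p = 0.03125). With lists reduced to equal length the width difference was -5.31 bp (exact permutation p = 0.0078). The replicate numbers did not pair libraries (correlations of replicate differences over 38 ends from -0.15 to 0.24 between tissues). With pairings held to a replicate block (24 pairings) the tissue ranges stayed 0.95 for density and 0.53 for spacing, with exact permutation p = 0.0833 each; the share met kept 17.6 points (exact permutation p = 0.0417). The spacing range was 0.21 for ends of 0.5 Mb and 0.70 for equal lists, and the range of the share met 9.15 for root sites of at least 100 bp and 17.0 for equal lists, each with an exact permutation p above 0.05. Ends among the densest windows numbered 2 in flower, 2 in seed and 5 in root at 0.5 Mb, 8 in flower, 10 in leaf and 9 in seed at 2 Mb, 8 in leaf and 9 in seed with equal lists, and 2, 2, 2 and 1 in flower, leaf, seed and root among the densest twentieth. Tissue-specific shares were 6.31% in flower and 16.4% in seed with stricter lists, 14.4%, 20.8% and 28.4% in flower, seed and root with equal lists, and 12.0%, 16.3%, 20.4% and 68.7% in flower, leaf, seed and root with an overlap of 50% of both sites. For root they were 26.9% at 0.5 Mb and 3.85% at 100 bp or more. Leaving out each library in turn gave 0.72 to 0.88 for the density ratio, 1.85 to 5.53 points for the share met, -0.094 to 0.022 for spacing, -0.714 to 0.286 bp for width and -0.277 to -0.019 for score. It gave 5 to 6 dense ends in flower, 5 to 7 in leaf, 3 to 4 in root and 3 to 5 in seed, and specific shares of 4.75% to 13.4% in flower, 11.2% to 17.0% in leaf, 16.3% to 42.5% in root and 10.2% to 19.7% in seed. The highest shares of flower, leaf and root came without flower 1, leaf 1 and root 1, and of seed without seed 1, where the tissue kept a single list and no reproducible overlap. The tissue ranges ran from 0.81 to 1.09 for density, 12.5 to 22.6 points for the share met and 0.32 to 0.74 for spacing. The causes were not tested.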
